A study of Mus musculus with 18 samples.

Results

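Neutrophil granule and calprotectin genes are a set of 10 genes whose transcripts were followed in bone marrow-derived macrophages (BMMs): Camp, Ltf, Ngp, S100a8, S100a9, Elane, Mpo, Fcnb, Cebpe and Chil3, out of 38887 genes in the deposited data. The list was selected on measured values, since the levels of these genes differed between the 3 GILZ TG replicates in earlier results of the same libraries. Levels in GILZ TG against WT and between GILZ TG replicates are therefore given as a description, without a test. Each gene was found by its symbol and identifier, and all 10 had a row in every library. The study asked how glucocorticoid-induced leucine zipper (GILZ, gene Tsc22d3), an anti-inflammatory protein induced by glucocorticoids, shapes macrophages. RNA was sequenced from BMMs of female C57BL/6J mice, age-matched within an experiment, after 6 days with 50 ng/ml of macrophage colony-stimulating factor (M-CSF), without treatment or after 4 h with 100 ng/ml LPS, the endotoxin that macrophages sense through Tlr4. There were 3 replicates in each of 6 groups, 18 libraries in all.

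The study's methods describe the WT mice as Lyz2-Cre animals (B6.129P2-Lyz2tm1(cre)Ifo/J), in which Cre is made from the endogenous Lyz2 promoter of myeloid cells. GILZ KO mice carried the same Cre together with loxP sites around Gilz exon 6. GILZ TG mice carried the Cre and a Gilz-1 cDNA in the ROSA26 locus behind a loxP-flanked stop cassette. Cre from Lyz2 acts in neutrophils and their precursors as well as in macrophages. Tsc22d3 fell into separate ranges by genotype, at 14.88 to 18.84 TPM (transcript abundance scaled by transcript length and by the library's total) in untreated WT, 1.89 to 2.81 in GILZ KO and 151.97 to 159.83 in GILZ TG. After LPS, the ranges were 4.56 to 5.81 in WT, 2.50 to 3.28 in GILZ KO and 127.22 to 140.56 in GILZ TG. Lyz2, the lysozyme gene that hosts the Cre, was at 11048 to 15401 TPM in untreated WT, at 26.72 to 45.83 in GILZ KO and at 17.24 to 53.08 in GILZ TG, so the WT libraries held abundant Lyz2 transcript and the libraries of the other genotypes little. Reads on genes ranged from 14583055 to 38557029 per library. All 10 macrophage markers fixed for the check, among them Adgre1, Csf1r and Cd68, reached at least 1 TPM in every library.

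Neutrophils make their granule proteins in waves while they mature in the bone marrow. Azurophil granules (Mpo, Elane) are filled first at the promyelocyte stage, and specific granules (Ltf, Camp, Ngp) follow at the myelocyte stage under the transcription factor C/EBPε (Cebpe). Calprotectin, the dimer of S100a8 and S100a9, is the most abundant cytosolic protein of mature neutrophils and is also made by monocytes. Culture of bone marrow in M-CSF yields macrophages, which make little of these granule proteins.

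The stretch of DNA just before the transcription start is shown for Ngp, Ltf, S100a8 and S100a9, 4 of the 5 most abundant members, since they varied together. The fifth, Chil3, held none of the motifs searched. For each, the 250 bases before the RefSeq start (build GRCm38.p6) are printed 5′ to 3′ on the gene's own strand. Capitals mark a match to the C/EBP core TTGCNNAA or its reverse complement TTNNGCAA, or to a TATA box, TATAAA or TTTATA, and no 2 matches overlapped in these sequences. Ngp lies at chr9:110419558-110419807 (plus strand), Ltf at chr9:111019042-111019291 (plus strand), S100a8 at chr3:90668821-90669070 (plus strand) and S100a9 at chr3:90695722-90695971 (minus strand).
Ngp: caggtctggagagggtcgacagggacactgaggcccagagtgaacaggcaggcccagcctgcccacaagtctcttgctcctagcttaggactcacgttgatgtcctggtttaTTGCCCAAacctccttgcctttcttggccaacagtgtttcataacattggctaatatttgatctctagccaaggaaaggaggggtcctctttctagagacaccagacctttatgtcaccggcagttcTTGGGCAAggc
Ltf: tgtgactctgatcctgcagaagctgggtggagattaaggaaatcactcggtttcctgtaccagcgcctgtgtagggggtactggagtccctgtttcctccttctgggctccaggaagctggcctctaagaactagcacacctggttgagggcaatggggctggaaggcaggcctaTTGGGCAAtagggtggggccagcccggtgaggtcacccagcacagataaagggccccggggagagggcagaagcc
S100a8: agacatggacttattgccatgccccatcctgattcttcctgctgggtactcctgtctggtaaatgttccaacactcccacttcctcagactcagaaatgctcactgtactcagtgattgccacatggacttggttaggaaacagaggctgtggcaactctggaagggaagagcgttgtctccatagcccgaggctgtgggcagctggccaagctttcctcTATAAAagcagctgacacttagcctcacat
S100a9: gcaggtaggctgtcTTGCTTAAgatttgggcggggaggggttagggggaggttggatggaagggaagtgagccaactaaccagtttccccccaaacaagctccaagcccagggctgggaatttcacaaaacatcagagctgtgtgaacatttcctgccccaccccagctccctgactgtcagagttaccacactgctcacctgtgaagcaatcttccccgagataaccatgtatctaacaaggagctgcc
The Ngp window held 2 C/EBP core matches, the nearer of them starting 11 bases before the start. Ltf held 1 match, 75 bases before the start, and S100a9 held 1, 236 bases before it. The S100a8 window held a TATA box 30 bases before the start and no C/EBP core match. Of the 9 members with a RefSeq window, 4 held the C/EBP core (Ngp, Ltf, S100a9 and Fcnb), against 9.56% of 32851 windows of the same length. A TATA box was found in 1 of 9, against 12.4% of all windows. A match is a string of letters, and binding was not measured here.

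The specific granule genes are neighbours in the genome. Camp, Ngp and Ltf lie within 1.20 Mb of chromosome 9 (GRCm38 positions 109847379 to 111042767). S100a8 and S100a9 lie within 26.7 kb of chromosome 3 (90668978 to 90695721), and Chil3 is on the same chromosome at 106147554 to 106167564.

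S100a9 was the most abundant member in the GILZ TG libraries. Without treatment it was at 19.68, 24.56 and 10.65 TPM in WT replicates 1 to 3, at 19.69, 20.74 and 12.61 TPM in GILZ KO, and at 75.97, 199.27 and 28.88 TPM in GILZ TG. After LPS it was at 23.99, 30.66 and 7.04 TPM in WT, at 24.66, 23.61 and 19.43 TPM in GILZ KO, and at 92.14, 213.69 and 36.56 TPM in GILZ TG. All GILZ TG libraries were above all WT and GILZ KO libraries of the same treatment, and GILZ TG replicate 2 stood far above the other two. In that replicate S100a9 ranked 799th of all genes by TPM without treatment, against rank 4988 in replicate 3.

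S100a8, the partner of S100a9 in calprotectin, followed the same order. Its untreated levels were 20.14, 18.54 and 7.16 TPM in WT, 15.52, 22.53 and 9.07 TPM in GILZ KO, and 60.90, 156.02 and 21.34 TPM in GILZ TG. After LPS the levels were 26.16, 27.52 and 6.93 TPM in WT, 27.12, 23.26 and 20.02 TPM in GILZ KO, and 75.60, 172.50 and 30.20 TPM in GILZ TG. The untreated GILZ TG replicate 3 fell within the range of GILZ KO, whose highest library was at 22.53 TPM.

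Ngp, neutrophilic granule protein of the specific granules, was the next most abundant. Without treatment it was at 9.65, 11.54 and 3.98 TPM in WT, at 6.86, 11.74 and 5.36 TPM in GILZ KO, and at 33.85, 81.39 and 11.03 TPM in GILZ TG. The LPS values were 10.70, 12.11 and 3.45 TPM in WT, 9.28, 9.32 and 9.11 TPM in GILZ KO, and 33.55, 88.34 and 10.35 TPM in GILZ TG. GILZ TG replicate 3 overlapped the WT range in both treatments.

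Ltf, which encodes the iron-binding protein lactoferrin, was at 4.34, 5.30 and 1.70 TPM in untreated WT, at 3.54, 4.11 and 3.13 TPM in GILZ KO, and at 13.50, 33.61 and 6.07 TPM in GILZ TG. After LPS, WT held 3.19, 4.23 and 1.55 TPM, GILZ KO 3.59, 4.20 and 3.24 TPM, and GILZ TG 10.33, 28.18 and 4.18 TPM. The 3 GILZ TG libraries lay above WT without treatment, while after LPS replicate 3 was just under the highest WT library.

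Chil3, the chitinase-like protein Ym1 that both neutrophil precursors and some macrophages secrete, had the same order of replicates. Without treatment it stood at 5.04, 4.37 and 2.16 TPM in WT, at 3.45, 4.40 and 3.69 TPM in GILZ KO, and at 16.10, 40.22 and 5.25 TPM in GILZ TG. With LPS the values were 5.25, 4.87 and 1.30 TPM in WT, 4.78, 7.49 and 3.82 TPM in GILZ KO, and 17.02, 42.28 and 5.31 TPM in GILZ TG. GILZ TG replicate 3 was barely above the highest WT library in both treatments.

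Camp, the precursor of the antimicrobial peptide cathelicidin, was close to the limit of the depth. Without treatment it was at 1.05, 1.16 and 0.13 TPM in WT, at 1.20, 1.26 and 0.67 TPM in GILZ KO, and at 2.41, 9.73 and 0.97 TPM in GILZ TG. After LPS it was at 2.62, 2.68 and 1.56 TPM in WT, at 1.69, 2.14 and 1.54 TPM in GILZ KO, and at 5.54, 10.91 and 2.18 TPM in GILZ TG. The value of 0.13 TPM rested on 1 count, and a level of 3 counts corresponded to 0.26 to 0.71 TPM of Camp, depending on the library. These limits cover counting error and no other source.

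Cebpe, the transcription factor of the specific granule stage, was near 1 TPM or less in most libraries. Untreated values were 0.36, 0.26 and 0.41 TPM in WT, 0.12, 0.42 and 0.68 TPM in GILZ KO, and 0.57, 2.33 and 0.68 TPM in GILZ TG. After LPS, WT had 0.49, 0.27 and 0.35 TPM, GILZ KO 0.48, 0.96 and 1.08 TPM, and GILZ TG 0.71, 1.44 and 1.20 TPM. GILZ TG replicate 2 was again the highest library in each treatment, but replicate 3 was not below replicate 1, unlike for the other members described so far.

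The azurophil granule genes and Fcnb, a ficolin (a lectin stored in granules), were the members with the fewest counts. Mpo, myeloperoxidase, had 64 and 53 counts in GILZ TG replicate 2 without and with LPS, and 11 and 13 counts in replicate 1. Elane, neutrophil elastase, had 7 counts in GILZ TG replicate 2 in each treatment. Fcnb reached 13 counts in the untreated GILZ TG replicate 2. In the 12 WT and GILZ KO libraries, each of the 3 genes had at most 2 counts per library, fewer than the 3 counts taken as the floor, so no fold is given for them. Elane was listed with reads in 5 of the 18 libraries, Mpo in 11 and Fcnb in 13.

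**Figure D1:**
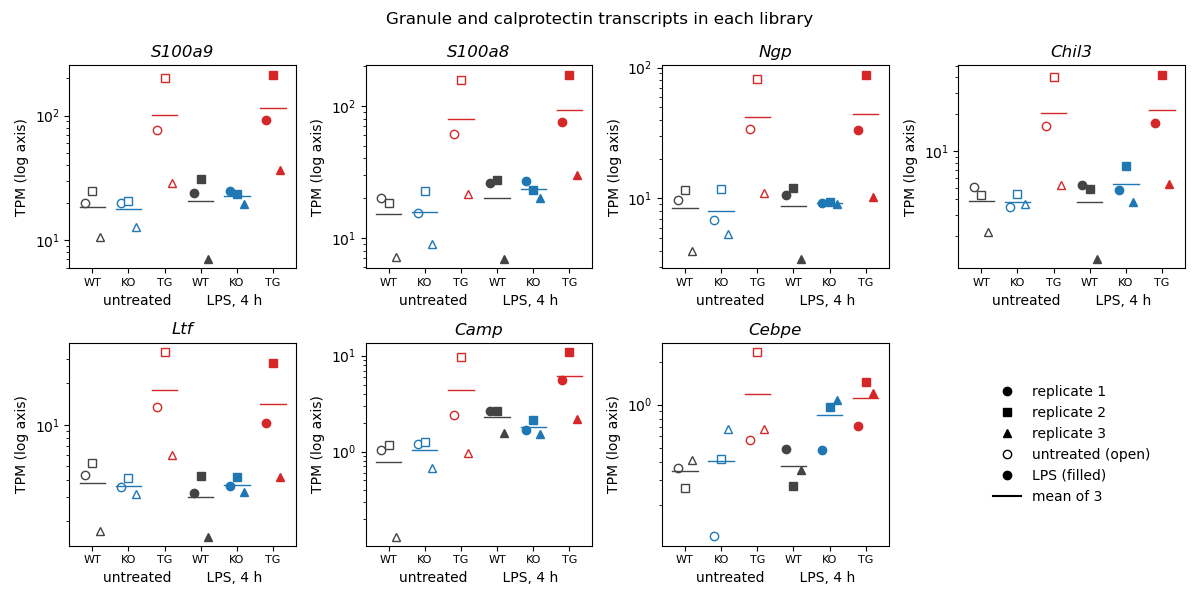
TPM (log axis) of the 7 members with reads in all 18 libraries, by genotype and treatment, with open symbols for untreated and filled symbols for LPS. Each symbol is a library, its shape gives the replicate number and the line is the mean of 3. GILZ TG replicate 2 (squares) is the highest library in every panel and treatment, and WT replicate 3 (triangles) is the lowest for S100a8, S100a9, Ngp, Chil3 and Ltf.

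The group means hide this spread. Over the 7 members with reads in every library, mean TPM in GILZ TG was 3.48 to 5.60 times that in WT without treatment and 2.72 to 5.66 times after LPS. S100a9 was at 18.3 ± 7.06 TPM in untreated WT and 101.4 ± 88.0 TPM in untreated GILZ TG (SD, n = 3 each), so the SD in GILZ TG was 86.8% of the mean. GILZ TG replicate 3 alone was at 1.24 to 1.98 times the WT mean without treatment. For S100a8, S100a9, Ngp, Ltf and Chil3, replicate 2 was 2.40 to 2.62 times replicate 1 and 5.54 to 7.66 times replicate 3 without treatment, and 2.28 to 2.73 times and 5.71 to 8.54 times after LPS. Without replicate 2, the log2 ratio of the GILZ TG mean to the WT mean went from 2.47 to 1.52 for untreated S100a9 and from 2.49 to 1.12 for untreated Camp. For Tsc22d3 the values of these 3 replicates without treatment were 155.93, 159.83 and 151.97 TPM, a narrow range beside that of the members.

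All 3 GILZ TG libraries exceeded all 3 WT libraries for 5 of 6 members tested without treatment (Ltf, Chil3, S100a8, S100a9 and Cebpe), against 9.75% of 12621 genes. After LPS this held for 4 of 7 members (Chil3, S100a8, S100a9 and Cebpe), against 7.78% of 12164 genes. These counts use the contrast in which the members were chosen, so nothing is read from them. A member could enter only where its counts passed the low-count filter, which the GILZ TG libraries helped it to do.

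Replicate numbers also ordered the levels of several members inside WT and GILZ KO. S100a8, S100a9, Ngp, Ltf and Chil3 gave 20 combinations of gene, genotype (WT or GILZ KO) and treatment. Replicate 3 was the lowest of its 3 libraries in 19 of 20, and replicate 2 was the highest in 15 of 20. These genes varied together in the same libraries, so the combinations are not separate observations. The share of all genes with this order was not computed, so nothing is read from these counts. Some gaps were small, as for Ngp in GILZ KO after LPS at 9.28, 9.32 and 9.11 TPM. Camp was also lowest in replicate 3 in both genotypes and treatments. Cebpe was not, and in GILZ KO it was highest in replicate 3, at 0.68 TPM untreated and 1.08 TPM after LPS. For S100a8, S100a9, Ngp, Ltf and Chil3 in WT, replicate 3 was at 0.35 to 0.48 times the mean of the other 2 replicates without treatment. After LPS it was at 0.26 to 0.42 times that mean. Whether a number marks a shared day or batch across genotypes is not given in the labels, and it was not tested. Over all genes, deviations from the group means correlated above 0.1 in 2 of 18 pairs of genotypes with the same number and treatment. Between GILZ KO and WT this held in 0 of 6 pairs.

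**Figure D2:**
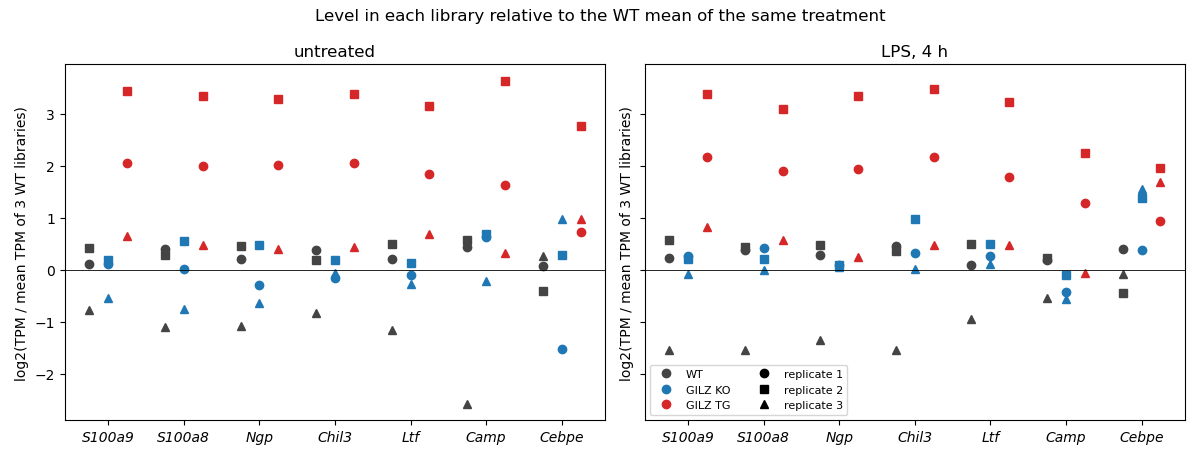
Log2 ratio of TPM in each library to the mean of the 3 WT libraries of the same treatment, for the 7 members with reads in every library, with colour for genotype and shape for replicate. The 3 GILZ TG replicates are spaced in the order 2, 1, 3 for all members but Cebpe in both panels, and WT replicate 3 lies well below the WT mean for the other 6 members in both.

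Ratios between members were narrower than the members' own range in some pairs. The TPM ratio of S100a9 to S100a8 was between 0.92 and 1.49 over the 9 untreated libraries and between 0.91 and 1.24 after LPS, while S100a9 itself spanned 10.65 to 199.27 TPM without treatment. The ratio of Ngp to Ltf was between 1.71 and 2.86 without treatment and between 2.22 and 3.35 after LPS. The ratio of Chil3 to Ngp went from 0.38 to 0.80 after LPS. Camp to Ngp varied more, with a coefficient of variation over libraries of 37.8% and 42.4%.

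On log2(TPM + 1), centred within each treatment, Pearson's r over the 18 libraries was between 0.94 and 0.99 for the 15 pairs without Cebpe, and between 0.65 and 0.71 for the 6 pairs with it. The highest value was 0.99 for Ngp and S100a8. These points share libraries and depth, and 6 of them come from GILZ TG mice. The spread between GILZ TG replicates, on which the list was selected, enters these values, so nothing is read from their height. Over the 12 WT and GILZ KO libraries, a subset added after seeing the data, the median r over all 21 pairs was 0.77 against 0.96 over 18. The 5 members without Camp and Cebpe were still at 0.83 to 0.97 with each other there, while Camp with Cebpe was at -0.35.

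Outside the list, the 10 genes closest to the members' mean over 18 libraries, among genes with a mean of at least 1 TPM, had r from 0.90 to 0.97. The ranking includes the GILZ TG libraries and so carries the same selection. The closest was Pglyrp1, a peptidoglycan recognition protein of neutrophil granules, with r of 0.97 and 2.22, 4.73 and 0.72 TPM in untreated GILZ TG replicates 1 to 3, against at most 0.80 in untreated WT. Of the 10, 3 were immunoglobulin genes, Ighg2c, Ighg2b and Igkv1-117. Ighg2b was at 7.88, 27.82 and 3.09 TPM in untreated GILZ TG and at most 0.84 in untreated WT. The others were Trf (transferrin), Ddrgk1, Clcf1, Rcn3, Itgax (the integrin CD11c) and Adcy2. Itgax was at 17.45, 20.60 and 10.39 TPM in untreated GILZ TG and at 4.39 to 7.05 in untreated WT.

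Markers of other cell types moved with the members in the GILZ TG libraries, and their part in the result was not tested. The summed TPM of 10 stromal fibroblast markers was 108.8 and 124.8 in untreated GILZ TG replicates 1 and 2 and 11.1 in replicate 3, against 12.3 to 23.5 in untreated WT and 5.42 to 13.2 in GILZ KO. Col1a1, a collagen chain of fibroblasts, reached 44.20, 51.29 and 4.98 TPM in GILZ TG replicates 1 to 3 without treatment. S100a8, S100a9, Ngp, Ltf and Chil3 in replicate 2 were 2.40 to 2.62 times replicate 1 without treatment and 2.28 to 2.73 times after LPS. The cause of either spread was not tested.

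The sum of 10 B cell and plasma cell markers was 94.2, 158.2 and 36.1 TPM in untreated GILZ TG replicates 1 to 3, against 31.1 to 35.5 in WT. Igkc, the kappa light chain constant gene, was at 42.31, 97.44 and 11.36 TPM there and at most 1.01 in untreated WT, while Cd79a, a B cell receptor gene, stayed at 0.13 TPM or less in every library. After LPS the fibroblast sum was 86.3, 118.9 and 11.2 TPM and the B cell and plasma cell sum 82.3, 150.0 and 26.8 TPM in GILZ TG replicates 1 to 3. The order of replicates was the same as for the members.

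Of 12 neutrophil markers that are not members, all had reads in at least 1 library and 3 reached 1 TPM in all. Their sum was 40.0, 61.8 and 32.1 TPM in untreated GILZ TG, against 25.4 to 31.0 in WT and 23.6 to 32.5 in GILZ KO. After LPS the sum was 77.8, 135.0 and 107.5 TPM in GILZ TG, 89.9 to 120.2 in WT and 121.3 to 134.7 in GILZ KO. Much of that was Lcn2, which rose in every genotype, to 49.12 to 72.74 TPM in WT and 78.18 to 80.70 in GILZ KO. Single markers differed after LPS. Cd177 was at 0.48, 1.12 and 0.10 TPM in GILZ TG and at most 0.15 in WT and 0.14 in GILZ KO. Itgb2l was at 0.39, 1.33 and 0.31 TPM, against at most 0.17 and 0.43. Mmp8 (9.98, 8.33 and 14.48) and Csf3r (18.15, 19.66 and 27.31) were highest in GILZ TG replicate 3. Ly6g, the defining surface marker of mouse neutrophils, was at 0.24 and 0.21 TPM in GILZ TG replicate 2 without and with LPS and listed at 0 in the other libraries of GILZ TG, WT and GILZ KO. Cxcr2, a chemokine receptor of mature neutrophils, was at 0.23 TPM in untreated GILZ TG replicate 2 and at most 0.09 TPM elsewhere. Lcn2, a specific granule protein that macrophages also make under LPS, was at 15.25, 35.75 and 4.93 TPM in untreated GILZ TG and at 1.66 to 4.71 in WT. Mmp8 (neutrophil collagenase) and Csf3r did not share this order. Untreated Mmp8 stood at 15.22, 11.07 and 18.33 TPM in GILZ TG and 13.39 to 18.98 in WT, and Csf3r at 5.67, 4.82 and 5.34 TPM against 4.26 to 7.09, with replicate 2 the lowest of GILZ TG for both.

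The sum of 8 monocyte markers was 26.2, 38.9 and 20.8 TPM in untreated GILZ TG and 17.5 to 26.3 in WT, and after LPS replicate 3 was the highest of GILZ TG at 509.7 TPM. The macrophage sum was 5982, 5938 and 4829 TPM in untreated GILZ TG and 4677 to 5465 in WT. The 8 progenitor markers summed to 129.2 to 134.9 TPM in untreated GILZ TG and 126.5 to 132.4 in WT. Cd48 alone was at 122.91 to 129.51 TPM in untreated GILZ TG and 120.97 to 125.83 in WT, so the sum says little about the others. Of the others with reads in untreated GILZ TG, Ms4a3 (0.33 TPM) and Gfi1 (0.21 TPM) were highest in replicate 2. Cd34 was highest in replicate 3, and Kit, Myb and Meis1 in replicate 1. Among 7 T cell markers Cd3e, Cd3d and Cd8a were at 0 in all libraries, as were Epx, Prg3, Ear1 and Ear6 among 8 eosinophil markers. The T cell list summed to at most 3.71 TPM and the erythroid list to at most 1.37 TPM in any library. The eosinophil list summed to 6.20 to 8.42 TPM in untreated GILZ TG against 5.58 to 10.0 in WT, and the mast cell and basophil list to 0.98 to 2.01 TPM against 0.85 to 2.01. In bulk RNA, fewer cells of a type and less RNA per cell cannot be told apart.

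**Figure D3:**
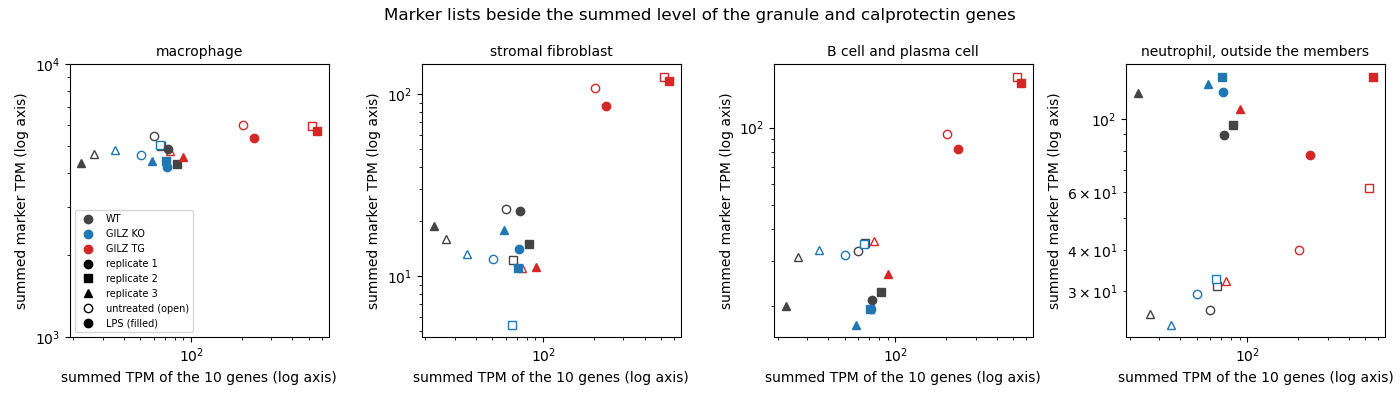
Summed TPM of 4 marker lists (vertical, log axis) against the summed TPM of the 10 granule and calprotectin genes (horizontal, log axis), with 1 symbol per library, colour for genotype, shape for replicate and fill for LPS. GILZ TG replicates 1 and 2 are at the upper right of the fibroblast and of the B cell and plasma cell panels, while the macrophage sum stays between 4210 and 5982 TPM in all libraries.

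The question of the LPS comparison was how the members respond to 4 h of LPS in each genotype. After LPS, Camp in WT and Cebpe in GILZ KO were each the only member called in its genotype, both higher. No member was called in GILZ TG, all in the fit of 18 libraries without pairing. Camp was 2.14 ± 0.78 higher on the log2 scale in WT (SE, n = 3 each, adjusted p = 0.0229 in edgeR's quasi-likelihood test with Benjamini-Hochberg adjustment over all genes). Cebpe was 1.67 ± 0.65 higher in GILZ KO (adjusted p = 0.0295 in the same edgeR fit). With only the GILZ KO libraries in the fit, neither Cebpe nor Camp passed the low-count filter, so the call of Cebpe depended on the other genotypes. Cebpe summed to 63 and 65 counts in GILZ TG against 17 to 27 in the WT and GILZ KO groups. The GILZ TG libraries thus helped it past the filter, so nothing is read from the call of Cebpe. Both calls rest on few reads, with 1 to 10 counts of Camp per untreated WT library and 2 to 9 counts of Cebpe per untreated GILZ KO library. Camp was no longer called without WT untreated replicate 3, WT LPS replicate 1 or WT LPS replicate 2, and Cebpe was not called without GILZ KO untreated replicate 1 or 2 or GILZ KO LPS replicate 2 or 3.

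These counts stand against a broad response, in which 68.6% of 13169 genes were called in WT, 68.5% in GILZ KO and 68.7% in GILZ TG. Of the 10 members, 8 were tested and 1, 1 and 0 were called. Elane and Fcnb did not pass the low-count filter. Mpo, with at most 2 counts in WT and GILZ KO libraries, passed through GILZ TG replicates 1 and 2, and no fold is given for it. In GILZ TG no member had an unadjusted p under 0.05 in edgeR, and DESeq2 called 0. The spread between GILZ TG replicates, on which the list was selected, enters this test, so nothing is read from the absence of calls.

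Library composition differed between treatments, and the direction of small changes depends on the scale. With edgeR's TMM scaling the median log2 change of all genes under LPS was -0.02 in each genotype, whereas on log2(TPM + 1) it was -0.51 in WT, -0.52 in GILZ KO and -0.51 in GILZ TG. Of the genes called under LPS in WT, 4415 of 9037 were higher with TMM and 2114 of 10670 with limma on log2(TPM + 1). The corresponding numbers were 4366 of 9024 and 2015 of 10717 in GILZ KO, and 4425 of 9045 and 2050 of 10638 in GILZ TG. Changes are given here on the TMM scale, relative to the bulk of genes.

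On that scale the median log2 change over the 7 tested members other than Mpo was 0.73 in WT, 0.98 in GILZ KO and 0.68 in GILZ TG. S100a8 was at 1.03 ± 0.71 in WT, 1.21 ± 0.74 in GILZ KO and 0.84 ± 0.60 in GILZ TG (log2 fold change ± SE). S100a9 was at 0.80 ± 0.69, 0.98 ± 0.72 and 0.79 ± 0.58, and Ngp at 0.69 ± 0.74, 0.84 ± 0.78 and 0.68 ± 0.63 in the same order. Chil3 was at 0.66 ± 0.75 in WT, 0.98 ± 0.78 in GILZ KO and 0.61 ± 0.62 in GILZ TG, and its WT change was below 0 on the TPM scale.

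Ltf had the smallest change of these, at 0.29 ± 0.66 in WT, 0.66 ± 0.68 in GILZ KO and 0.30 ± 0.56 in GILZ TG, and its sign turned in WT and GILZ TG on the TPM scale. Camp was at 1.37 ± 0.84 in GILZ KO and 1.12 ± 0.62 in GILZ TG. Cebpe was at 0.73 ± 0.67 in WT and 0.48 ± 0.52 in GILZ TG. None of the changes in this and the previous paragraph had an adjusted p under 0.05 in edgeR's fit of 18 libraries without a block. With only the 6 GILZ KO libraries fitted, edgeR called 5 members there, Ltf at 0.65 (adjusted p = 0.0019), Ngp at 0.83, Chil3 at 0.96, S100a8 at 1.21 and S100a9 at 0.97 (adjusted p = 0.00043), against 75.5% of 12269 genes. In the fit of 18 libraries, the genotypes share 1 estimate of the spread for each gene. The SEs of WT and GILZ KO therefore also carry the spread between GILZ TG replicates, on which the list was selected.

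In GILZ TG, untreated and LPS libraries with the same number deviated together over all genes, so the fit with the replicate block is given beside the one above. With the block, Camp, Ltf, Ngp, Chil3, S100a8 and S100a9 rose in GILZ TG after LPS on the TMM scale, 6 of the 8 members tested. Over all genes the same fit called 9515 of 13169, or 72.3%, so the members' share was near that of all genes. S100a9 was 0.85 higher on the log2 scale (adjusted p = 5.258e-05 in edgeR with the replicate block) and S100a8 0.91 higher (adjusted p = 9.845e-05 in the same edgeR fit). Camp was 1.32 higher (adjusted p = 0.003 in that edgeR fit), Ngp 0.65, Chil3 0.60 and Ltf 0.26 higher, all 3 with an adjusted p under 0.05. The TPM of S100a9 and S100a8 was higher after LPS in 3 of 3 GILZ TG pairs, as was that of Camp and Chil3, where Chil3 in replicate 3 went from 5.25 to 5.31. The TPM of Ngp was lower after LPS in 2 of 3 pairs and that of Ltf in 3 of 3. Without GILZ TG untreated replicate 2, 4 members (Camp, S100a8, S100a9 and Cebpe) were called in the fit without the block, against 8560 of 13279 genes. That fit lacked the highest untreated GILZ TG library and kept the LPS library of the same number, so nothing is read from the count. Without GILZ TG LPS replicate 3 Camp was called, against 8699 of 13392 genes.

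**Figure D4:**
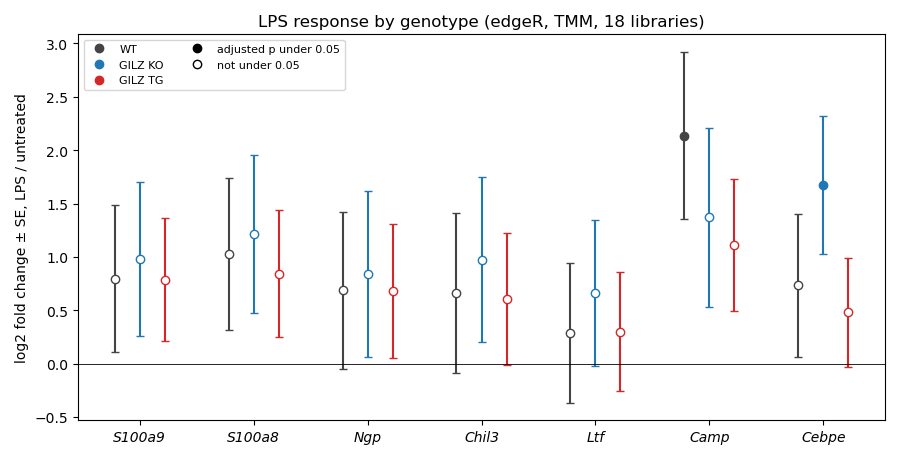
Log2 fold change of LPS against untreated (vertical axis, TMM scale) of the 7 members in WT, GILZ KO and GILZ TG, from edgeR's fit of 18 libraries without a replicate block, with the SE as bars. Filled points have an adjusted p under 0.05, which are Camp in WT at 2.14 and Cebpe in GILZ KO at 1.67. The GILZ TG libraries helped Cebpe past the low-count filter, so nothing is read from its filled point. On the TPM scale Ltf in WT and GILZ TG and Chil3 in WT lie below 0.

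The LPS response of the members was also compared between genotypes. Between GILZ KO and WT 0 of 8 members were called, against 0.0152% of 13169 genes, and between GILZ TG and WT 0 of 8, against 0.00759%. The smallest adjusted p among members was 0.932 (Cebpe, edgeR) for GILZ KO and 1 for GILZ TG in edgeR, no member had an unadjusted p under 0.05, and DESeq2 called 0 in both. The difference between Camp's change in GILZ KO and in WT was -0.77 ± 1.16 on the log2 scale (SE), so the SE exceeded the estimate and a difference of -1 lay within 1 SE. The spread between GILZ TG replicates enters the SEs of both comparisons, so nothing is read from the absence of calls.

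GILZ KO was compared with WT in each treatment. The groups also differed in Lyz2 as given above, and the number of Cre alleles per group is not given in the sources used here, so loss of GILZ and a difference at Lyz2 cannot be told apart. Without treatment, mean TPM in GILZ KO was 0.95 to 1.34 times that in WT over the 7 members with reads in every library, and after LPS it was 0.78 to 2.27 times. Of the members tested, 0 of 6 were called without treatment and 0 of 7 after LPS, against 0.0951% of 12621 and 0.0822% of 12164 genes. DESeq2 called 0 in both. The log2 fold changes without treatment were between -0.11 ± 0.67 (Ngp) and 0.15 ± 0.76 (Cebpe), and both changed sign when 1 of 2 libraries was left out (WT replicate 2 or GILZ KO replicate 3). The GILZ TG libraries, with 63 summed counts of Cebpe against 17 in GILZ KO and 19 in WT, helped it past the filter.

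After LPS the changes lay between -0.37 ± 0.57 (Camp) and 1.10 ± 0.49 (Cebpe). Cebpe was the only member with an unadjusted p under 0.05 in edgeR, and its adjusted p was 0.516 in edgeR. The GILZ TG libraries helped Cebpe past the low-count filter of this fit. They held 65 summed counts of Cebpe after LPS, against 27 in GILZ KO and 18 in WT, so nothing is read from its p. The LPS levels of Cebpe overlapped narrowly, with 0.48 TPM in the lowest GILZ KO library and 0.49 TPM in the highest WT library, on 4 to 11 counts per library. The SEs were 0.49 to 0.70 after LPS and exceeded the size of the estimate for every tested member but Cebpe. For those members a change as large as the SE is not excluded. The GILZ TG libraries were part of these fits, so the spread between them enters the SEs.

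Other genes of the neutrophil program were read from fixed lists in the same fits. Among 6 further azurophil granule genes 2 were tested under LPS, and Ctsc, the protease that activates the serine proteases of the granule, rose in every genotype, by 2.29 in WT, 2.20 in GILZ KO and 2.50 in GILZ TG on the log2 scale. Prtn3 and Ctsg, proteinase 3 and cathepsin G, did not pass the filter and were at 1.66 TPM or less. Of 9 specific granule genes outside the members, 3 rose in WT and 4 each in GILZ KO and GILZ TG. They were Lcn2, Hp and Wfdc21, joined outside WT by Lyz2. Lyz2, which hosts the Cre, was low there, with means of 33.59 and 62.87 TPM in GILZ KO without and with LPS. In GILZ TG the means were 32.99 and 44.76 TPM, against 12840 and 8088 in WT, so its rise is not comparable with WT. Lcn2, which withholds iron from bacteria by binding their siderophores, rose by 4.68 in WT, 5.17 in GILZ KO and 2.43 in GILZ TG on the log2 scale, to 44.14 to 92.18 TPM in GILZ TG after LPS.

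Of 10 gelatinase granule and late genes, 5 were tested under LPS. Mmp9, Mmp25 and Slpi rose and Adam8 fell in each genotype. Mmp9, gelatinase B, rose by 1.05 in WT, 1.43 in GILZ KO and 0.84 in GILZ TG on the log2 scale, but on TPM it was 223.20 to 320.37 in untreated WT and 299.99 to 409.34 after LPS, so the groups overlapped there.

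All 8 granulocyte transcription factors were tested. Cebpb, Cebpd, Spi1, Irf8 and Gfi1 rose in each genotype, and Cebpa and Cebpg fell, but on log2(TPM + 1) Irf8 was lower after LPS in WT and GILZ KO (by -0.11 and -0.15). Runx1 fell in GILZ KO and GILZ TG, by 0.30 in each on the log2 scale. Cebpd, which acts in acute inflammation, rose by 3.94 in WT, 4.20 in GILZ KO and 3.72 in GILZ TG, and Cebpa, which starts the granulocyte program, fell by 3.09, 2.61 and 3.02. Cebpe thus stood among relatives that changed in opposite directions.

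Of 8 neutrophil receptor and surface genes 5 were tested. Csf3r, the receptor for granulocyte colony-stimulating factor, rose with the formyl peptide receptors Fpr1 and Fpr2 in each genotype. Fpr2 rose by 5.39 in WT, 5.29 in GILZ KO and 5.52 in GILZ TG on the log2 scale, and was at 98.43 to 104.47 TPM in GILZ TG replicates 1 and 2 after LPS, below replicate 3 at 121.16. The order of GILZ TG replicates seen for the members was thus not shared by Fpr2.

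Among the other S100 genes and calprotectin receptors, 8 of 10 were tested under LPS and 3 rose in WT, 4 in GILZ KO and 4 in GILZ TG. S100a10, S100a11 and Tlr4, a receptor for calprotectin as well as for LPS, rose in each genotype, and S100a1 rose by 0.20 in GILZ KO and 0.30 in GILZ TG. On log2(TPM + 1) the sign turned for Tlr4 in GILZ KO (-0.25) and for S100a1 in both genotypes (-0.43 and -0.34). Over all related lists, 5 of 72 calls under LPS turned sign in this way. S100a4 was at 3653 to 4606 TPM in untreated GILZ TG and 3939 to 4854 in untreated WT, with GILZ TG replicate 3 the highest of its group. Of the chitinase-like and ficolin relatives, 2 of 4 (Chil1 and Fcna) were tested and 0 were called under LPS in edgeR.

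Between GILZ KO and WT, 1 gene of these 55 was called in each treatment, which was Lyz2. It fell by 8.63 on the log2 scale without treatment (adjusted p = 2.159e-05, edgeR) and fell by 7.02 after LPS (adjusted p = 1.788e-05, edgeR). No gene of these lists was called in either comparison of LPS responses in edgeR.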

How the data were processed

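RNA of 18 BMM libraries was measured by poly(A)-selected, strand-specific sequencing of 75 nt single reads. The authors ran the grape-nf pipeline on GRCm38 and deposited an expected count per gene (estimated reads, not normalized) and TPM per library (scaled by effective transcript length and total). The authors' deposited DESeq2 tables hold their own comparisons of the groups. Only their pairs of identifiers and symbols were used here. The submitters' processing notes name DESeq2 1.40.2 and FastQC 0.11.2.

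The members and gene lists were chosen with earlier results of these data known. Expected counts were rounded, filtered by filterByExpr, scaled by TMM and tested with edgeR 4.0.16 in R 4.3.3, with p-values adjusted over all genes tested (threshold 0.05). All 18 libraries were fitted together for LPS effects, and the 9 of a treatment for genotype. The tests were also run on simulated counts, for GILZ KO against WT without treatment only. The same spread was set for all genes, and changes were placed in well-counted genes. The simulation therefore does not cover genes of few counts, the LPS comparisons or the replicate block. Alternatives were DESeq2 1.42.0, its size factors, no filter, a filter of 10 counts in 3 libraries, limma 3.58.1 on log2(TPM + 1) and log2(TPM + 0.1), the libraries compared alone, all 18 in one fit for genotype, a replicate block and each library left out. Named besides members, Tsc22d3 and Lyz2 were list genes with an adjusted p under 0.05 (at most 3 per direction and comparison) or at least 5 TPM in a group, marker sums with defining genes, and the 10 nearest genes. Trf, Cd79a, Ighg2b, Pglyrp1, Itgax, Prtn3, Ctsg, Cd177, Itgb2l, Runx1 and S100a1 were singled out after their values were seen.

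Depth limits genes of few counts. The labels number replicates 1 to 3, and p-values measure the spread between these preparations. Deviations from the group means over all genes correlated between untreated and LPS libraries of the same number at 0.266, 0.397 and 0.605 in GILZ TG, which were therefore taken as paired, a hint from the data and not from the labels. In WT and GILZ KO not every pair exceeded 0.1.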

Additional observations from a re-analysis of the deposited data

How the results depend on the processing

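Counts of members called for GILZ KO against WT and for both comparisons of LPS responses were 0 under every alternative run. For LPS against untreated, limma on log2(TPM + 1) called 0 members in WT and 0 in GILZ KO, and limma on log2(TPM + 0.1) called 0 in GILZ KO. With the libraries compared alone, 5 were called in GILZ KO (Ltf, Ngp, Chil3, S100a8 and S100a9), against 75.5% of all genes. With the replicate block 6 were called in WT, 7 in GILZ KO and 6 in GILZ TG, against 72.3%, 71.5% and 72.3% of all genes. In WT and GILZ KO the samples share only a number, with correlations of 0.264, -0.013 and 0.055 in WT and -0.033, 0.086 and 0.095 in GILZ KO, and 11 of 18 libraries correlated best with their own number. The block changed no call in the other comparisons. Leaving out 1 library gave 0 to 1 members in WT, 0 to 1 in GILZ KO and 0 to 4 in GILZ TG. Those fits called 8536 to 8819 of the 13279 to 13395 genes tested.

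Signs turned on the TPM scale, where the median of all genes lies lower, for Ltf in WT (-0.23 and -0.29 with pseudocounts 1 and 0.1) and in GILZ TG (-0.35 and -0.39), and for Chil3 in WT (-0.094 and -0.16). Leaving out 1 library gave LPS changes of -0.083 to 0.62 for Ltf in WT, and in GILZ TG of -0.61 to 1.14 for Ltf, -0.26 to 1.58 for Ngp and -0.35 to 1.54 for Chil3. For GILZ KO against WT without treatment it gave -0.50 to 0.18 for Ngp and -0.42 to 0.62 for Cebpe. Of 348 alternative values of 25 single-member changes, 295 kept sign and side of the threshold, 27 were newly past it, 10 no longer past it and 16 reversed. The cause was not tested. The adjusted p over alternatives was 0.000404 to 0.103 for Camp in WT and 0.00601 to 0.137 for Cebpe in GILZ KO in the LPS comparison. The median correlation of members was 0.93 on log2(TPM + 0.1), 0.92 without centring and 0.77 over 12 libraries. The 14 log2 ratios of GILZ TG to WT, 1.44 to 2.50, moved by at most 0.12 with TMM-scaled CPM and were 0.76 to 1.65 without GILZ TG replicate 2. Depth limits Mpo, Elane and Fcnb, for which a change was not detectable in WT or GILZ KO.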
